A study of Danio rerio with 5 samples.

Results

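The 7 pancreatic digestive enzyme genes prss1, ctrb.1, ela2, ela3l, cela1.6, cpa5 and cell were followed in adult zebrafish upper digestive tract. They were taken as every probe set whose single annotated gene symbol is one of these names. That gave 7 probe sets, 1 for each gene, of 15502 on the array besides its controls. The tissue came from zCdx1b transgenic fish in 3 pools and from wild-type fish in 2. A pool joined 3 fish of 3 months of age, AB in background, and was hybridised to 1 array. Per the labels, the transgenic fish carried zebrafish Cdx1b with EGFP behind a zebrafish K5 promoter fragment, inserted with Tol2 transposase. The wild-type fish carried no transgene. The sources used here do not give the number of founders behind the transgenic pools, the sex of the fish or where the dissection began and ended. The transgene's own level was not analysed here, since the tables used name no probe set cdx1b.

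These genes encode enzymes that pancreatic acinar cells make in bulk, store in granules and release into the gut. Trypsin, chymotrypsin, the elastases and the carboxypeptidases leave the cell as inactive zymogens, and trypsin activates the others once it has itself been cut in the gut lumen. Carboxyl ester lipase acts on dietary esters in the presence of bile salts. Zebrafish have no stomach, so protein digestion rests largely on these pancreatic enzymes and on the peptidases of the intestinal brush border.

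All 7 genes were far higher in the transgenic pools. On the deposited log2 scale their values ran from 12.39 to 13.33 in transgenic pools and from 2.73 to 6.03 in wild-type pools. No gene's groups overlapped, and the smallest distance between the lowest transgenic and the highest wild-type value was 6.50, for cpa5. The fitted differences ran from 7.23 to 9.62 (log2), with a median of 9.09 against -0.08 over the 6479 genes tested. By limma, with Benjamini-Hochberg adjustment over all probe sets kept, all 7 passed, and 10.1% of the 10335 probe sets kept were called higher. Groups that did not overlap, with transgenic higher, were seen for 20.1% of probe sets kept. The genes were chosen with earlier results of these data known, so the count of 7 of 7 describes them and tests nothing about them as a set.

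Both ends of the arrays' range frame these values. The background bound of an array is here the highest value among 44 controls that stand for bacterial genes and artificial tags. It was between 3.72 and 3.95 on the transgenic arrays and at 3.64 and 4.13 on the arrays of wild-type pools 1 and 2. The upper end, the highest probe set of the array, lay between 13.55 and 13.58 on transgenic arrays and at 13.23 on both wild-type arrays. Where neither wild-type array exceeded its bound, only a minimum fold is given (at least N-fold), from the transgenic mean over the mean of the wild-type bounds. By that measure 4 genes were at background in wild type, namely prss1, ctrb.1, ela3l and cell, and 3 were above it in both wild-type pools, namely ela2, cela1.6 and cpa5. Of all 369 probe sets kept with both wild-type pools at or below the bound, 291 were called higher. In tissue RNA, fewer cells of a type and less RNA per cell cannot be told apart.

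**Figure D1:**
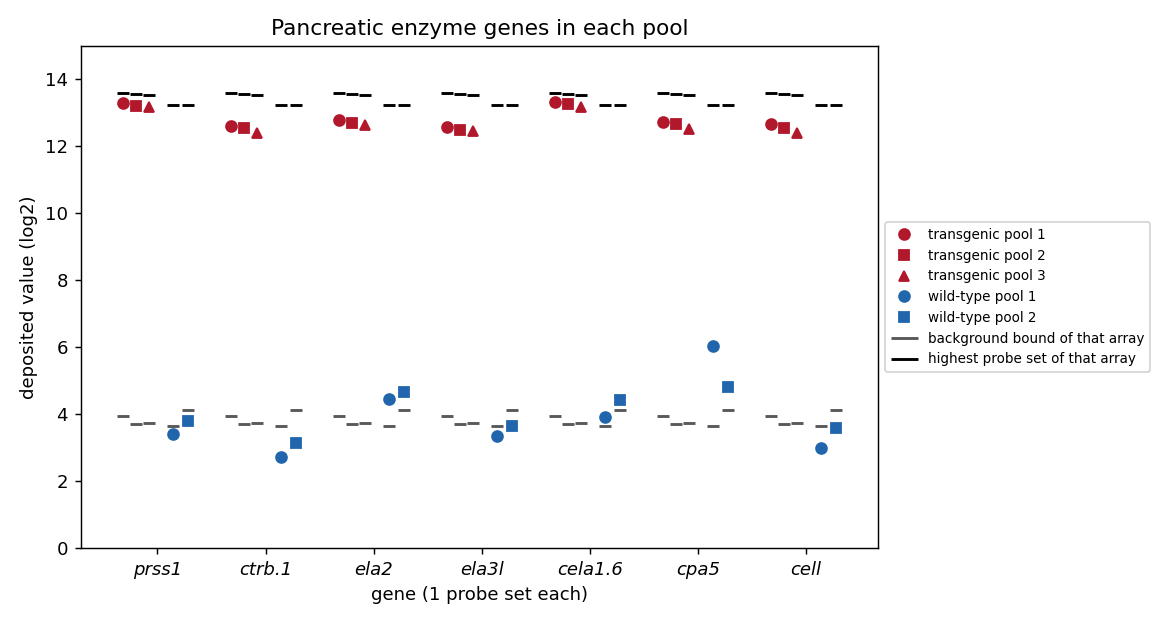
Deposited log2 value (vertical axis) of each enzyme gene in transgenic pools 1 to 3 (red) and wild-type pools 1 and 2 (blue), with a grey dash at the background bound and a black dash at the highest probe set of the same array. Transgenic values lie between 12.39 and 13.33, under the upper end, and wild-type values lie around the bound, apart from cpa5 at 6.03 in wild-type pool 1.

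The trypsin gene prss1, whose product activates the other zymogens, read 13.28, 13.22 and 13.17 in transgenic pools 1, 2 and 3 and 3.41 and 3.80 in wild-type pools 1 and 2. All transgenic values were high and close together, and both wild-type values lay under the bound of their array. The means were 13.22 ± 0.06 (SD, n = 3) in transgenic and 3.60 ± 0.27 (SD, n = 2) in wild-type pools. The gene rose by 9.62 (log2, SE 0.19, limma with Benjamini-Hochberg adjusted p = 1.2e-05), which is at least 646-fold. On each transgenic array 3 probe sets were brighter, and the gap to the upper end was 0.30, 0.34 and 0.38 in pools 1, 2 and 3.

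The chymotrypsinogen gene ctrb.1 encodes a protease that cuts after large aromatic residues. It read 12.62, 12.54 and 12.41 in transgenic pools 1, 2 and 3 and 2.73 and 3.14 in wild-type pools 1 and 2. Both wild-type values were under the bound of their array. Its difference was 9.59 (log2, SE 0.23, limma adjusted p = 1.2e-05), at least 397-fold.

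The 3 elastase genes encode proteases of a family whose classic substrate is elastin. The gene cela1.6 read 13.33, 13.28 and 13.18 in transgenic pools and 3.93 and 4.42 in wild-type pools, and no more than 2 probe sets were brighter on any transgenic array. Both wild-type values stood only slightly above the bound, by 0.285 and 0.284, at the 37.5th and 48.4th percentile of their arrays. The fold on the deposited scale was 546-fold (log2 difference 9.09, SE 0.20, limma adjusted p = 1.2e-05). With wild-type values so near background, this fold is read only as measured on this scale.

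The elastase gene ela2 read 12.78, 12.68 and 12.63 in transgenic pools and 4.44 and 4.67 in wild-type pools. Of the 3 elastases it stood farthest above the wild-type bound, by 0.80 in pool 1 and 0.54 in pool 2, and near the middle of those arrays, at the 50.1st and 56.9th percentile. The difference was 8.14 (log2, SE 0.17, limma adjusted p = 1.2e-05), or 283-fold. The elastase gene ela3l read 12.57, 12.48 and 12.46 in transgenic pools and 3.36 and 3.66 in wild-type pools. Both of its wild-type values were under the bound, and it rose by 8.99 (log2, SE 0.20, limma adjusted p = 1.2e-05), at least 392-fold.

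The carboxypeptidase gene cpa5 belongs to the A family, whose enzymes remove residues from the carboxyl end of peptides. It read 12.74, 12.68 and 12.53 in transgenic pools and 6.03 and 4.81 in wild-type pools. Wild-type pool 1 stood out, at 2.39 above its bound and at the 78.1st percentile of its array, against 0.67 above the bound and the 60.9th percentile in wild-type pool 2. The wild-type mean was 5.42 ± 0.86 (SD, n = 2), the widest wild-type spread of the 7 genes. The difference of 7.23 (log2, SE 0.35, limma adjusted p = 0.000116), or 150-fold, was the smallest of the 7. Leaving out wild-type pool 2 gave 6.62 and leaving out wild-type pool 1 gave 7.84, and the gene passed in both cases.

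The lipase gene named cell in the platform annotation encodes a carboxyl ester lipase. In the RefSeq gene table of the assembly GRCz12tu, cell is a synonym of cel.2, and the annotated gene identifier was not found there, so which copy the probe set reads is uncertain. It read 12.66, 12.55 and 12.39 in transgenic pools and 2.98 and 3.59 in wild-type pools. It had the widest transgenic spread of the 7 genes, a SD of 0.13, and both wild-type values were under the bound. Its difference was 9.25 (log2, SE 0.25, limma adjusted p = 1.67e-05), at least 401-fold.

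The wild-type pools differed from each other in a shared way. In 6 of the 7 genes wild-type pool 2 read higher than pool 1, by 0.23 to 0.60, and cpa5 was the exception, at -1.22 for pool 2 minus pool 1. The array of wild-type pool 2 also had the higher bound. Among the 369 probe sets kept with both wild-type pools at or below the bound, 95.1% read higher in pool 2, against 36.2% of all probe sets kept. A wild-type difference as large as that of cpa5, in its direction, was seen for 367 probe sets, 3.55% of those kept. Of the probe sets called higher in transgenic pools, 2.49% had one.

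Because 4 genes were at background in wild type, their fitted differences cannot be ordered. The 3 genes above the bound on all arrays could be set against each other within each array, a comparison added after their values were seen. The difference cela1.6 minus cpa5 was 0.60, 0.60 and 0.65 (log2) in transgenic pools 1, 2 and 3, against -2.10 and -0.39 in wild-type pools 1 and 2. For ela2 minus cela1.6 it was -0.55, -0.59 and -0.55 in transgenic pools, against 0.52 and 0.25 in wild-type pools. For ela2 minus cpa5 it was 0.05, 0.00 and 0.10 in transgenic pools, against -1.58 and -0.14 in wild-type pools. The groups did not overlap in any of the 3 pairs, which are not independent, since each follows from the others. The share of all pairs of probe sets without overlap was not computed, so the 3 of 3 only describes these pairs. An exact permutation test, two-sided, gave p = 0.2 for each (0.2 after Benjamini-Hochberg adjustment over the 3 pairs). That is the smallest value it can give with 3 and 2 pools, so it cannot decide. The gene cela1.6 was 0.285 and 0.284 above the wild-type bounds and 0.25, 0.29 and 0.36 below the transgenic upper ends. How far this shaped its differences was not tested.

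Within the transgenic group the 7 genes moved together by small amounts. All 7 read highest in transgenic pool 1 and lowest in pool 3, with pool 1 above pool 3 by 0.11 for ela3l to 0.26 for cell. The same order was seen for 43.2% of all probe sets kept and for 92.3% of those called higher. After quantile normalization it held for 2 of the 7 genes, against 48.1% of all probe sets kept on that scale. That scale keeps only ranks within an array, so equal ranks tie. The gene prss1, with 3 brighter probe sets on each transgenic array, read 13.12 in all 3 transgenic pools there. The 2 of 7 therefore cannot decide whether the order held. On the deposited scale, hepatocyte and intestinal absorptive genes shared the order, in 15 of 16 and 15 of 15 genes. Squamous epithelium and striated muscle genes lay the other way, with a median pool 1 minus pool 3 of -1.44 and -2.86. The enzymes' order held for 0 of 16 squamous epithelium and 1 of 17 striated muscle genes. The part of tissue composition in this order was not tested.

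Other exocrine genes were read from lists of zebrafish pancreas genes. Of 20 such genes found on the array, 19 passed the filter on low values, and all 19 rose. The exception, not tested, was the astacin protease gene c6ast1, at or below the bound in all 5 pools. The median difference of the 19 was 7.11 (log2), or 6.56 with 12 genes at their bound. Those 12 passed the filter only through the transgenic arrays, so the filter favoured genes that rose. Of the 369 probe sets kept with both wild-type pools at or below the bound, 291 were called higher. The order of transgenic pools was the same in all 19, and in 17 of them after quantile normalization. The 7 enzymes were chosen knowing these results, and their higher median describes that choice.

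Among the trypsin and chymotrypsin genes all 3 tested rose. The gene ctrl, a chymotrypsin-like protease, read 12.56, 12.49 and 12.34 in transgenic pools and 4.24 and 5.06 in wild-type pools, a difference of 7.81. The chymotrypsinogen gene ctrb.2, which lies beside ctrb.1 in the RefSeq assembly, read 11.03, 10.87 and 10.64 in transgenic pools and 3.92 and 4.66 in wild-type pools, a difference of 6.56. The gene zgc:92590, on this list by its name in the files, rose by 8.49, at least 342-fold. Near-identical copies can share signal on an array, and hybridisation of ctrb.1 RNA to the ctrb.2 probe set was not tested. The gene named prss59, singled out after its values were seen, matched no list by that name, although the trypsin list holds numbered copies of prss59. It read 6.77, 6.53 and 6.28 in transgenic pools and 5.86 and 5.30 in wild-type pools, and did not pass (difference 0.95, limma adjusted p = 0.0657). It is not among the 3 genes counted here or the 19 other exocrine genes.

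The other elastases rose too, 3 of 3. The gene ela2l, the neighbour of ela2, read 13.07, 13.04 and 12.95 in transgenic pools and 4.14 and 4.91 in wild-type pools, 362-fold apart. For cela1.5 the rise was 7.24 (log2), at least 88.2-fold, and for cela1.1 it was 5.84, at least 46.8-fold. Both of these, unlike cela1.6, were at or below background in wild type.

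All 3 other carboxypeptidase genes rose. The gene cpa1, the neighbour of cpa5, read 11.11, 10.92 and 10.56 in transgenic pools and 2.82 and 3.35 in wild-type pools. Its wild-type values were under the bound in both pools, and it rose by 7.78 (log2), at least 126-fold. The gene cpb1, whose enzyme removes basic residues, rose by 7.11 and stood above the bound in both wild-type pools, at 4.18 and 5.21. There wild-type pool 2 was the higher one, the reverse of cpa5. The gene cpa4 rose by 6.89, at least 79.3-fold.

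Lipid and starch enzymes followed. The carboxyl ester lipase gene cel.1, beside cel.2 in the RefSeq assembly, read 12.33, 12.16 and 11.99 in transgenic pools and 3.28 and 3.85 in wild-type pools, at least 309-fold apart. The phospholipase gene pla2g1b rose by 6.25 (log2). The lipase gene lipf, which in mammals is a gastric lipase, had the smallest rise of the 19 genes, at 6.47, 6.21 and 5.99 in transgenic pools and 5.22 and 4.69 in wild-type pools (difference 1.27, SE 0.27, limma adjusted p = 0.0231). The amylase gene amy2a rose by 8.48, at least 312-fold, and amy2al1 by 3.31, at least 8.66-fold.

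Granule and other acinar genes rose in 5 of 5 tested. Both cuzd1.1 and the astacin protease gene c6ast3 were at background in wild type and rose at least 247-fold and 179-fold. The syncollin gene sycn.2, a zymogen granule protein, rose by 6.21. The pancreatic disulphide isomerase gene pdia2 rose by 4.12, at least 12.6-fold.

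**Figure D2:**
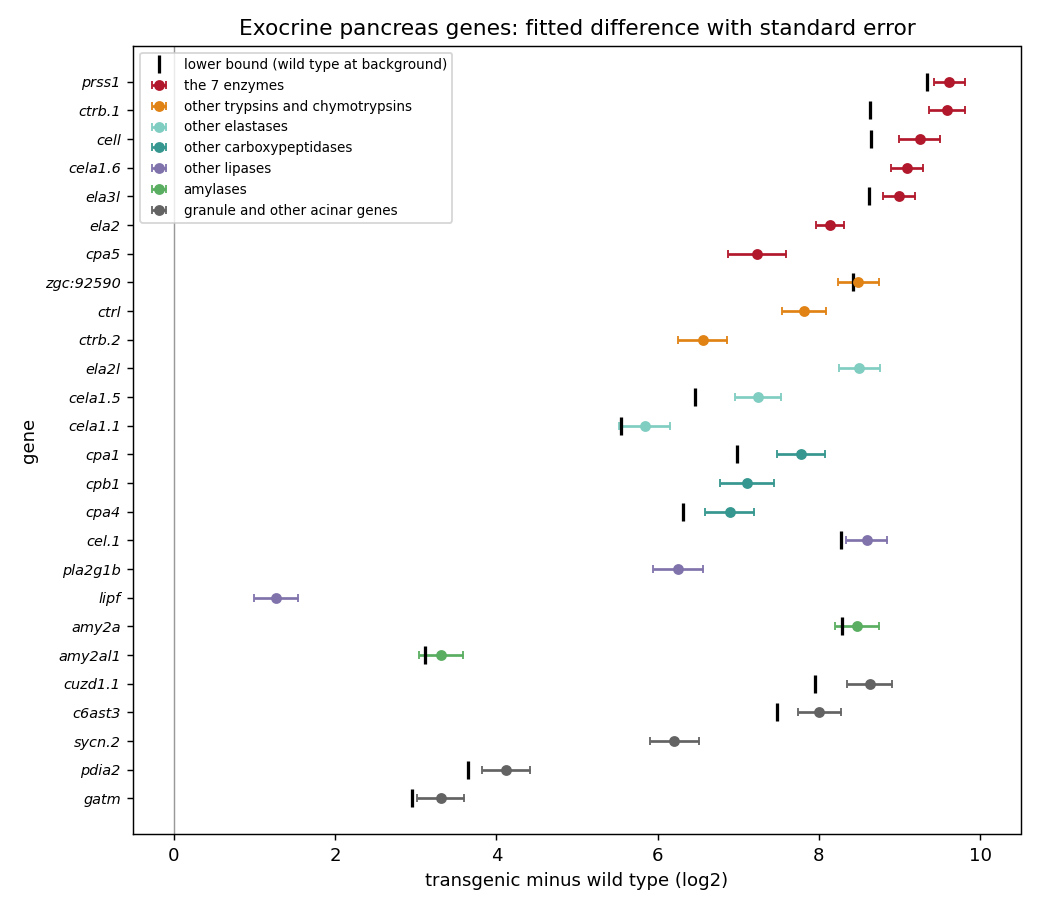
Fitted difference of transgenic minus wild-type pools (log2, horizontal axis) with its standard error for the 7 enzyme genes and 19 other exocrine genes, grouped by kind of protein. Black ticks mark the lower bound where both wild-type pools were at background. Differences run from 9.62 for prss1 down to 1.27 for lipf, all above 0. The gene prss59, which matched no list by name and did not pass, is not shown.

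Distance from the upper end went with the size of the difference between transgenic pools. Across these 26 genes, the gap below the highest probe set and the difference of pool 1 minus pool 3 had Spearman's rho of 0.86 and Pearson's r of 0.80. This describes genes measured on the same arrays, which are not independent replicates. The 7 enzymes lay within 1.15 of the upper end on every transgenic array and differed between pools by at most 0.26. The creatine synthesis gene gatm, singled out after its value was seen, differed most, by 0.83 at a gap of 6.72. The gene lipf, farthest from the upper end at a gap of 7.34, differed by 0.48, so the relation was not steady. How far signal at the upper end is compressed was not tested, so the folds of the brightest genes may be read only as measured on this scale.

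**Figure D3:**
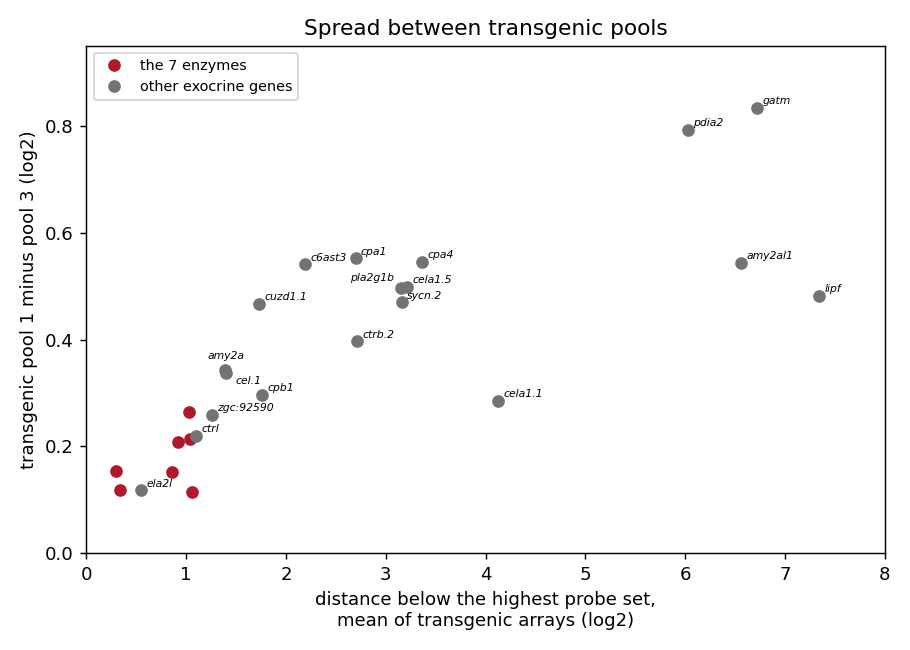
Transgenic pool 1 minus pool 3 (log2, vertical axis) against the mean distance below the brightest probe set of the transgenic arrays (log2, horizontal axis), 1 point for each of 26 exocrine genes. The 7 enzymes (red) sit at the lower left, between 0.11 and 0.26, and gatm reaches 0.83.

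No acinar transcription factor gene passed the test. Of 5 such genes on the array 2 passed the filter on low values. They were nr5a2, at 5.03, 4.86 and 4.36 in transgenic pools and 3.70 and 4.10 in wild-type pools (difference 0.85, limma adjusted p = 0.0652), and xbp1, at 0.45 (limma adjusted p = 0.416). The acinar fate gene ptf1a did not pass the filter and read 4.32, 3.87 and 3.69 in transgenic pools and 2.87 and 3.41 in wild-type pools, so it was above the bound in 2 of 3 transgenic and in neither wild-type pool. The factor gene gata6, also filtered, read 4.61, 4.04 and 3.90 in transgenic pools and 2.74 and 3.12 in wild-type pools, above the bound in all 3 transgenic and in neither wild-type pool. Another filtered factor gene, gata4, read 4.00, 3.80 and 3.65 in transgenic pools and 3.36 and 3.85 in wild-type pools, so its groups overlapped. It was above the bound in 2 of 3 transgenic and in neither wild-type pool. Of the duct genes 2 were tested. The duct and cartilage factor gene sox9b fell by 1.66 (log2, SE 0.28, limma adjusted p = 0.0113), at 5.13, 5.36 and 5.36 in the 3 transgenic pools, against 7.29 and 6.60 in wild-type pools, and the carbonic anhydrase gene ca2 did not pass.

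Some islet hormone genes changed in the same direction as the enzymes. Of 6 islet genes tested 4 rose, 0 fell and 2 did not pass. The insulin gene ins read 9.89, 9.60 and 9.22 in transgenic pools and 3.80 and 4.64 in wild-type pools, a difference of 5.35. The other 3 were at or below the bound in both wild-type pools. The somatostatin gene sst1.1 rose at least 24.1-fold, its relative sst2 at least 25.7-fold and the glucagon gene gcga at least 11.2-fold. Another 5 islet genes did not pass the filter, among them the second insulin gene insb and pdx1, both at or below the bound in all 5 pools.

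Genes that finish protein and sugar digestion at the brush border rose in 5 of 5 tested. Of these, 4 were at or below the bound in both wild-type pools and passed the filter only through the transgenic arrays. The gene cpm, also on this list, did not pass the filter on low values. It read 3.43, 4.05 and 4.78 in transgenic pools and 3.74 and 3.69 in wild-type pools, so its groups overlapped. The meprin gene mep1a.1 read 10.24, 9.97 and 9.57 in transgenic pools and 4.16 and 4.36 in wild-type pools. The peptide transporter gene slc15a1b rose at least 36.8-fold, the sucrase-isomaltase gene si at least 16.8-fold and the aminopeptidase gene anpeplb at least 15.8-fold. The median difference was 9.09 for the 7 pancreatic enzymes and 4.65 over these 5, or 8.63 and 4.07 with bounded genes at their bound. The medians were not tested against each other, and the 7 enzymes were chosen with earlier results of these data known.

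Markers of some other tissues also differed between the groups. Of 16 hepatocyte genes tested 15 rose, with a list median level of 10.27 to 10.64 over transgenic pools and 3.34 and 3.85 in wild-type pools 1 and 2. Of 15 intestinal absorptive genes all rose, with a median level of 11.94 to 12.23 over transgenic pools and 3.23 and 3.82 in wild-type pools. The lists share genes, with apobb.1 on the hepatocyte and intestinal lists and slc15a1b on the intestinal and brush border lists. In wild type, 11 of the 16 hepatocyte genes and 9 of the 15 intestinal genes were at or below the bound in both pools. They passed the filter only through the transgenic arrays, as did every gene kept at or below that bound. Intestinal genes further above it in both wild-type pools, singled out after their values were seen, were rbp2a, at 7.80 and 6.80, fabp2, at 7.52 and 6.03, and cdh17, at 4.79 and 6.24. The first pair was higher in wild-type pool 1, as cpa5 was, and cdh17 was higher in pool 2. Of all probe sets kept, 11.7% were called lower. Of 16 squamous epithelium genes 15 fell and 0 rose, with a median level of 7.17 to 8.39 over transgenic pools and 10.35 and 10.16 in wild-type pools. Of 17 striated muscle genes 4 fell, 0 rose and 13 did not pass. Of 7 leukocyte genes 2 fell, 0 rose and 5 did not pass. Of 4 erythrocyte genes tested, 4 did not pass. The muscle list differed widely between transgenic pools. Its median level was 5.48, 6.70 and 9.19 in transgenic pools 1, 2 and 3 and 9.08 and 9.14 in wild-type pools. The labels name the same tissue for both groups. The part of these other cell types, or of what was dissected, in the enzyme differences was not tested.

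**Figure D4:**
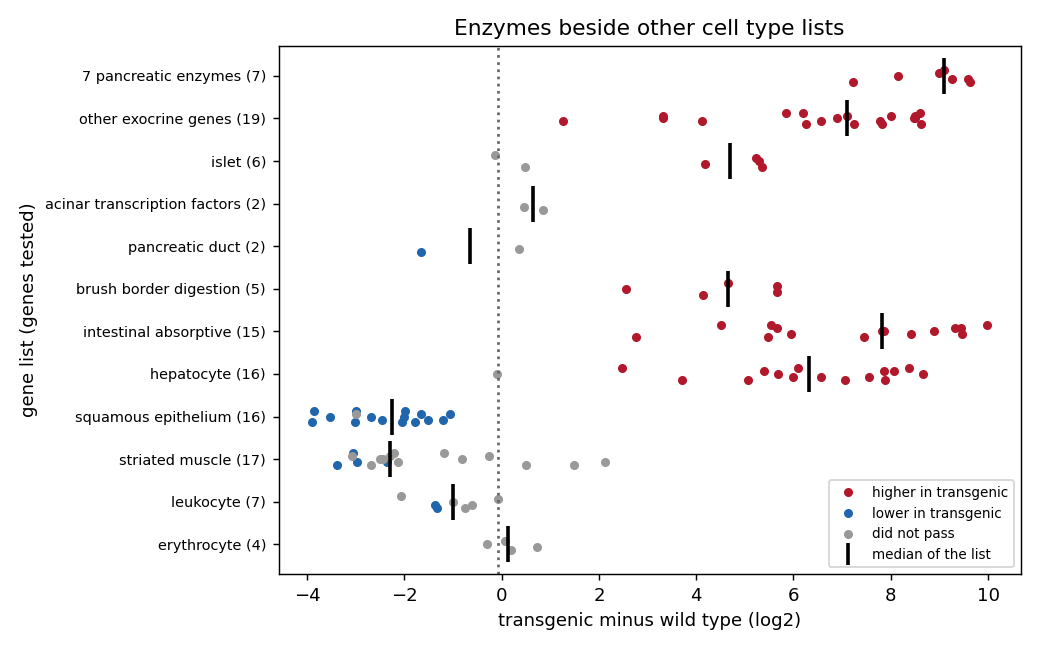
Difference of transgenic minus wild-type pools (log2, horizontal axis) for each gene tested, by list, with the number of genes in brackets, black ticks at list medians and a dotted line at the median of all 6479 genes, -0.08. Enzymes, other exocrine and intestinal genes lie to the right, as do the hepatocyte genes apart from rbp4 at -0.10, and squamous epithelium and most striated muscle genes lie to the left.

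The genes most like the 7 enzymes across the 5 pools came from several tissues. Likeness was the root mean square difference (log2) between a probe set's values, centred on their own mean, and the mean centred profile of the 7 enzymes, over 7510 probe sets of other genes. The smallest were wu:fa56d06 at 0.09, the chitinase gene chia.2 at 0.10, cuzd1.1 at 0.18, the apolipoprotein gene apoa2 at 0.18 and cel.1 at 0.18. Of these, cuzd1.1 and cel.1 were on the exocrine lists, chia.2 was on the intestinal list and apoa2 on the hepatocyte list. The enzymes themselves lay between 0.09 for ela3l and 0.90 for cpa5 from their own mean profile. With 5 pools in 2 groups, this measure is mostly the size of the difference between the groups.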

How the data were processed

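RNA of 5 pools was measured on 1 array each. TRIzol was used for extraction and the RNA was made into biotin-labelled cRNA, per the labels' protocols. The authors deposited log2 values, 1 per probe set and pool, and their processing notes name MAS5 without version, scaling target or log step. That the scale is log2 was judged from the range of the values, with a mean of 4.89 on every array, and another base would change the folds. Symbols came from GEO's platform annotation, updated through Entrez identifiers. Of 15502 probe sets 10795 had 1 symbol, 135 several and 4572 none.

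Probe sets were kept (10335) if 2 or more arrays had them at or above that array's 40th percentile. Of the 7 enzyme genes 5 reached it on fewer than 2 wild-type arrays, so they were kept through the transgenic arrays. Groups were compared with limma 3.58.1 in R 4.3.3 (lmFit, eBayes with trend, two-sided, Benjamini-Hochberg, threshold 0.05). The fit was also run on simulated data with smaller changes than those of the enzymes, a check of the fit and not of these results. Errors of differences are the model's standard errors, and precision is limited by the number of arrays. A gene was read from its brightest probe set. From each list, up to 4 genes with the largest difference past the threshold were named, and the 5 most alike profiles. Members and lists were chosen with earlier results of these data known. The alternatives were other normalizations, filters and variance models, the replicate block, a mean over a gene's probe sets and each pool left out. Promoter and protein sequences were not analysed here.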

Additional observations from a re-analysis of the deposited data

Results flagged for a closer look

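Probe sets annotated to several genes were part of the fit over all probe sets but were counted under no enzyme or list. Of these probe sets, 2 list an enzyme gene among their names. These 2 are given because they carry signal outside the enzymes and lists, above the wild-type level. The probe set annotated to both ctrb.1 and ctrb.2 read 13.29, 13.26 and 13.19 in transgenic pools and 4.00 and 4.61 in wild-type pools, a difference of 8.94 (log2, SE 0.22, limma with Benjamini-Hochberg adjusted p = 1.36e-05). Unlike the ctrb.1 probe set, it was above the bound in both wild-type pools. The probe set annotated to cell, cel.1 and cel.2 read 13.04, 12.96 and 12.83 in transgenic pools and 3.19 and 3.87 in wild-type pools, at or below the bound in both. It was at least 532-fold higher (fitted difference 9.42, SE 0.25, limma adjusted p = 1.67e-05). Which of the genes each probe set read was not tested.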

How the results depend on the processing

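Each of the 7 enzyme genes stayed higher and past the threshold under all 12 alternatives of the model, filter, scaling and pools, 84 results in all, with differences from 6.62 to 9.81 (log2) and limma adjusted p of at most 0.000428. With single pools left out, 7 enzymes were called each time, their median ran from 8.85 to 9.34, and 18 to 19 other exocrine genes were called. Counts over all probe sets ran from 649 to 1164 higher and from 367 to 1445 lower in the same runs, against 1043 and 1207 with all pools. The lowest pair, 649 and 367, came without transgenic pool 2, and 592 were lower without wild-type pool 1. The cause was not tested. A lone wild-type pool was assumed to vary like the transgenic ones. With the replicate block all 7 enzymes were called, and 934 probe sets were higher and 932 lower, against 1043 and 1207. No wild-type pool has the number of transgenic pool 3, so with the block that pool adds nothing to the group difference. The enzymes' median was 9.13 (log2) both with the block and without transgenic pool 3. The labels give no sign that equal numbers share a fish or day. The other filters and variance models left the enzymes' differences unchanged and could move only their adjusted p. The 84 results are therefore not 84 separate checks. The 7 enzymes were also chosen with earlier results of these data known, so the 84 describe them and test nothing about that choice. The background bound limits the folds of 4 enzymes, and the wild-type values of cela1.6 stood near it.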
